A study of Mus musculus with 27 samples.

Results

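Long-term feeding of a medium-fat diet (MF) was set against a control diet (C) in the livers of 14 of the 27 mice of the series, 7 MF-fed and 7 C-fed, chosen by the diet label alone. All of them were male C57BL/6J mice, which entered their diet at 9 weeks of age, ate ad libitum and were sacrificed at 12 months. C was the AIN-93W diet, and MF supplied 25% of its energy as fat. Before sacrifice every mouse fasted for 4 hours, received a gavage of 0.5% carboxymethyl cellulose (the vehicle, without a drug) and fasted for another 6 hours. The remaining 13 mice, 7 on a diet alternating weekly between restriction and MF (INT) and 6 on continuous calorie restriction (CR), entered the fit to estimate the spread between mice, counted towards the filter on low intensity, and gave a reference level. RNA came from whole liver, so fewer cells of a type and less RNA per cell cannot be told apart. The levels below are log2 intensities of Affymetrix Mouse Gene 1.1 ST arrays, on which a difference of 1 is a doubling, and a gene has 1 value per mouse.

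The liver takes up fatty acids, makes them from sugar, burns them in mitochondria and peroxisomes, and stores the surplus as triglyceride in droplets whose coat proteins, the perilipins and the CIDE proteins, govern fusion and lipolysis. Between meals it releases glucose made from amino acids and lactate, and it stores glucose as glycogen when fed. C57BL/6J males are known to differ from each other in how far they gain weight and liver fat on the same diet. The question behind the comparison was what a moderately raised fat content does to these programmes by middle age when mice eat freely.

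The 14 samples had the profile of liver. The 10 hepatocyte markers with a value, among them albumin and apolipoproteins, lay between 11.97 and 13.70 in every mouse, and their mean level ran from 13.01 to 13.11 in C and from 12.95 to 13.09 in MF. The exocrine pancreas markers averaged 3.86 to 4.08 in C and 3.91 to 4.04 in MF, near the intensity minimum of 20 (4.3 on the log2 scale). Adipoq and Lep, the defining hormones of adipocytes, stayed at or below that minimum in all 14 mice. They were the only 2 of the 10 adipocyte markers with a value to do so. The list averaged 6.01 to 6.92 in C and 5.79 to 7.04 in MF, with single values up to 13.20. Pairs of arrays correlated with r between 0.983 and 0.992. In both groups the arrays of replicates 1 to 4 had a narrower interquartile range (3.61 to 3.70) than those of replicates 5 to 7 (3.70 to 3.75). The labels do not say what separates these sets, so values within each are given beside the results.

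At the scale of the whole transcriptome the MF- and C-fed livers could not be separated gene by gene. Of 13603 genes tested, 0 passed an adjusted p of 0.05 (0%) in limma's moderated test with Benjamini-Hochberg adjustment. The smallest adjusted p was 0.140, and every other gene was at 0.99 or above. At an unadjusted p under 0.05 there were 464 genes (3.41%, under the 5% that chance gives), 296 higher in MF (2.18%) and 168 lower (1.24%). Without C replicate 5 there were 729 such genes and without MF replicate 6 there were 723. That split followed the scaling: after centring each array on its median it was 163 higher and 275 lower, and after cyclic loess between arrays 225 and 233. In the same fit CR minus C called 2382 genes (17.5%) and MF minus CR called 2690 (19.8%), 2 contrasts that share mice with each other and with MF minus C.

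The intervals show what sizes remain possible under a spread per gene shared by all diets. For some genes that spread was smaller on INT and CR. Cidea had an SD of 1.79 in C, 1.81 in MF, 0.37 in INT and 0.19 in CR. Intervals of such genes are narrower than the C and MF mice alone would give. A limma fit of the 14 C and MF arrays alone had 413 genes at an unadjusted p under 0.05 and called 0. The median standard error of a difference was 0.08, and for 13507 genes the 95% interval lay within 1 log2 unit of 0, so that for these a doubling or halving in the group mean fell outside the interval. The remaining 96 genes had an interval that reached past 1 log2 unit, 47 on the higher side and 49 on the lower. They included genes that differed strongly between mice on the same diet, such as Cidea, Saa2, Hsd3b5, Cyp2b9 and immunoglobulin genes described further on. Others, such as Tff3, Slc43a1 and Gpx6, had narrower intervals that lay farther from 0. The median difference over all genes was 0.01, the central values from the 1st to the 99th percentile ran from -0.25 to 0.28, and only 2 genes were at least 2-fold higher and 6 at least 2-fold lower. In 93.8% of genes the difference was smaller than the mean of the SDs over the mice of each diet.

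**Figure D1:**
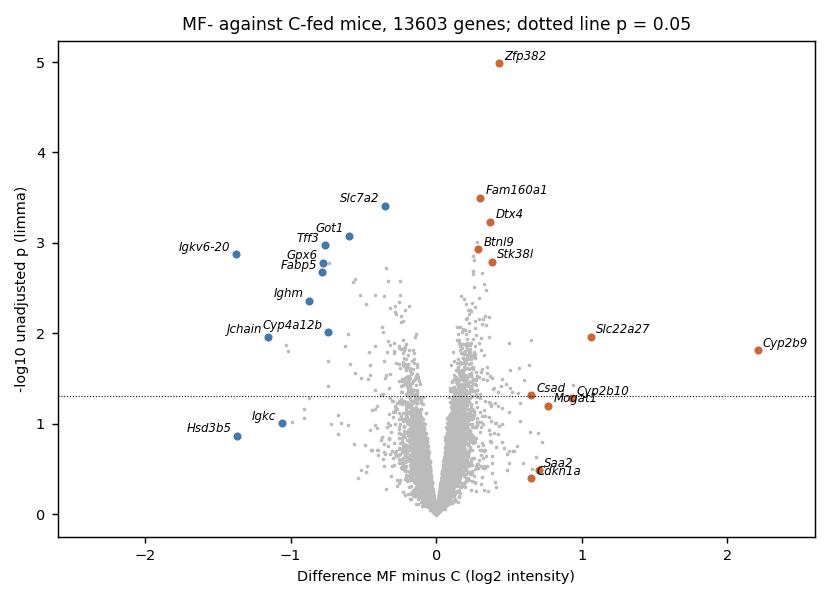
Each point is a gene, with the difference MF minus C in log2 intensity on the x axis and -log10 of limma's unadjusted p on the y axis; the dotted line marks the unadjusted threshold, and coloured points are named genes. Zfp382 stands highest at a difference of 0.43, Cyp2b9 lies farthest right at 2.21, and Igkv6-20 farthest left at -1.38, none of them past the adjusted threshold.

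The smallest p belonged to Zfp382, which encodes a KRAB zinc finger protein, a class of transcriptional repressors. Its level was 4.08, 4.28 and 4.40 (lowest, median, highest) in C and 4.49, 4.73 and 5.04 in MF. The groups of 7 did not overlap, but 4 of the C values were at or below the intensity minimum of 20. The difference was 0.43 (95% interval 0.27 to 0.60) with an adjusted p of 0.140 by limma, 0.45 within replicates 1 to 4 and 0.41 within replicates 5 to 7.

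Groups without overlap were found for 8 genes (0.0588% of those tested), 7 higher in MF and 1 lower, with differences of 0.14 to 0.43 in size. A random split of the mice into groups of 7 would leave about as many genes without overlap, so these genes are only described. Besides Zfp382 they were Fam160a1, Btnl9, Inpp5a, Ptpn21, Rab36, Rdh8 and, lower in MF, Msgn1. Fam160a1 ran from 5.85 to 6.21 in C and from 6.22 to 6.46 in MF, groups that nearly touch, with a difference of 0.30 (0.15 to 0.45). Btnl9, a butyrophilin-like membrane protein, held to 6.47 to 6.61 in C and lay at 6.64 to 6.97 in MF, a difference of 0.29 (0.13 to 0.46). Inpp5a, an inositol polyphosphate phosphatase, and Ptpn21, a protein tyrosine phosphatase, differed by 0.14 (0.04 to 0.25) and 0.19 (0.07 to 0.32). Rab36, a small GTPase, was higher by 0.18 and Rdh8, a retinol dehydrogenase, by 0.33, the latter with 7 of 7 C and 4 of 7 MF values at or below the minimum, so that it was tested only through its levels on the other diets. Msgn1, a mesodermal transcription factor, was lower by 0.22 at levels between 4.65 and 5.25. These are small shifts of weakly or moderately bright genes.

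Other genes of small p and higher MF level were Dtx4, a Notch-pathway ubiquitin ligase, with a difference of 0.37 (0.18 to 0.57), and Stk38l, a kinase of the NDR family, with 0.38 (0.16 to 0.61). Itga5, the α5 chain of the fibronectin receptor, was at 7.37, 7.62 and 7.75 in C and at 7.67, 7.84 and 8.04 in MF. MF replicates 3 and 4 fell inside the C range, and the difference was 0.25 (0.11 to 0.40). Marveld2, the tight junction protein tricellulin, differed by 0.31, Slc2a13, a myo-inositol transporter, by 0.25, Qpct, glutaminyl cyclase, by 0.26, and Spindoc by 0.28.

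On the lower side, the smallest p belonged to Slc7a2, a cationic amino acid transporter of hepatocytes, which stood at 11.27, 11.50 and 11.74 in C and at 10.83, 11.28 and 11.46 in MF, a difference of -0.35 (-0.53 to -0.17). Next came Got1, the cytosolic aspartate aminotransferase, at 11.77, 12.04 and 12.29 in C and at 10.92, 11.20 and 11.99 in MF, a difference of -0.60 (-0.92 to -0.27), or 0.661-fold. The 4 lowest MF values of Got1 were those of replicates 1 to 4, at 10.92 to 11.20 and below every C mouse. Replicate 7 at 11.67 was just below the lowest C mouse, and replicates 5 and 6 at 11.87 and 11.99 lay in the lower C range. The difference was thus -0.93 within replicates 1 to 4 and -0.15 within replicates 5 to 7. Slc43a1, a transporter of branched-chain and other neutral amino acids, was at 7.19, 7.81 and 8.51 in C and at 6.29, 7.09 and 7.57 in MF, lower by 0.74 (-1.17 to -0.30), with -0.95 and -0.45 in the respective sets.

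A further group of low p held proteins of varied function. Tff3, a secreted trefoil peptide, was at 6.25, 7.26 and 7.85 in C and at 5.96, 6.27 and 6.78 in MF, a difference of -0.76 (-1.19 to -0.34). In replicates 1 to 4 alone its difference was -1.08 with an adjusted p of 0.0343 by limma, the single gene called in that subset. Gpx6, a glutathione peroxidase, differed by -0.78 (-1.24 to -0.32) and Fabp5, a fatty acid binding protein, also by -0.78 (-1.25 to -0.31). Taken as the mean of all its probe sets, Fabp5 differed by -0.62. For Fabp5, 6 of the 7 C mice lay between 8.66 and 9.47, against 7.83 to 8.68 in MF, and C replicate 5 at 7.72 was the lowest of all 14. Gria3, a glutamate receptor subunit, differed by -0.56, Aoc2, an amine oxidase, by -0.35 and Crabp1, a retinoic acid binding protein, by -0.25.

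Fat storage genes had wide and overlapping ranges in both diets. Cidea, a CIDE protein that enlarges droplets and is scarce in lean liver, was at 3.70, 5.08 and 7.84 in C and at 4.04, 6.58 and 8.67 in MF. High levels, above 6, were present in C replicates 4, 5 and 7 and in MF replicates 3, 4, 5 and 7. The difference of 0.66 had an interval from -0.67 to 1.99. Cidec, the CIDE protein of large unilocular droplets, had the same high mice and ranged from 7.35 to 10.26 in C and from 6.19 to 10.78 in MF, with a difference of 0.41 (-0.83 to 1.65).

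Mogat1, a monoacylglycerol acyltransferase of triglyceride synthesis and a PPARγ target, showed the highest positive difference of the lipid genes. It was at 4.03, 4.89 and 6.64 in C and at 4.35, 6.18 and 7.20 in MF, a difference of 0.77 (-0.05 to 1.58), with 1.28 in replicates 1 to 4, 0.08 in replicates 5 to 7 and 0.34 without MF replicates 3 and 4. Plin4, a perilipin, ran from 6.90 to 9.19 in C and from 6.82 to 9.49 in MF (difference 0.39, -0.45 to 1.22), Cd36, a fatty acid translocase, from 8.96 to 11.19 and from 9.03 to 11.33 (0.32, -0.43 to 1.06), and Pparg itself from 7.60 to 9.44 and from 7.95 to 9.32 (0.23, -0.28 to 0.74). Their ranges nearly coincided. Within replicates 5 to 7 the values of Cidea, Cidec and Pparg were -0.63, -0.44 and -0.24, and without MF replicates 3 and 4 those of Cidea, Cidec, Plin4 and Cd36 were -0.11, -0.27, -0.01 and -0.05. Levels in INT averaged 3.98 ± 0.37 (SD, n = 7) for Cidea and 7.33 ± 1.04 for Cidec.

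Of 16 lipid droplet genes tested, 1 was higher and 0 were lower at an unadjusted p under 0.05, 13 had a value above 0 and the median was 0.08, against 54.6% above 0 (45.4% below) and a median of 0.01 over all genes. The member below that threshold was Bscl2, seipin, which organises the budding of droplets from the endoplasmic reticulum, with a difference of 0.18 (0.02 to 0.34) and the same value in both array sets. Triglyceride synthesis and lipolysis had 0 of 22 higher and 1 lower. The lower gene was Lpin1, a phosphatidate phosphatase and coactivator induced by fasting, at 10.71, 11.44 and 12.03 in C and 9.97, 10.70 and 11.37 in MF, a difference of -0.56 (-1.05 to -0.07). Among 13 genes of PPARγ action and fatty acid uptake, 1 was higher and 1, Fabp5, lower, and the median was 0.03.

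The genes that make fatty acids showed little movement. None of 20 de novo lipogenesis genes was below an unadjusted p of 0.05 in either direction, the median was -0.05, and 8 were above 0. Elovl6, the elongase that makes stearate from palmitate, had the largest difference of that list, -0.22 (-0.54 to 0.10), at 11.14 to 11.74 in C and 11.02 to 11.50 in MF. Elongases and desaturases likewise had 0 of 18 in either direction and a median of -0.03. Among 30 genes of fatty acid oxidation and other PPARα targets there were again 0. Even so, 26 of their values lay above 0 (54.6% over all genes), with a median of 0.06. Cyp4a14, an ω-hydroxylase and sensitive PPARα target, differed by 0.65 (-0.18 to 1.48), where C replicate 6 at 8.86 lay far under the other C mice (10.98 to 12.62). Pdk4, which spares glucose by inhibiting pyruvate dehydrogenase, differed by 0.50 (-0.41 to 1.41) and by 0.02 without MF replicates 3 and 4.

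Sterol handling did not separate the diets at this number of mice. Cholesterol synthesis and uptake had 0 of 23 genes at an unadjusted p under 0.05, with 14 values above 0, and its largest difference was that of Hmgcs1, cytosolic HMG-CoA synthase, at 0.21 (-0.33 to 0.74). Bile acid synthesis and transport had 0 of 21. Cyp7a1, which sets the rate at which cholesterol becomes bile acid, was at 10.10, 10.54 and 11.15 in C and at 8.98, 10.44 and 11.34 in MF. Its difference of -0.35 (-0.93 to 0.22) consisted of -0.86 within replicates 1 to 4 and 0.32 within replicates 5 to 7. Apolipoproteins and lipoprotein assembly (18 genes) had 0 with a median of -0.0029, and glycolysis (16 genes) had 0 with a median of 0.0048.

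Gluconeogenesis was the metabolic list with most members at a small p. Of 18 genes, 4 were lower in MF at an unadjusted p under 0.05 and 0 higher, and 15 values lay below 0, against 1.24% lower, 2.18% higher and 45.4% below 0 over all genes. The median was -0.10. Besides Got1 they were Ppargc1a, the fasting coactivator PGC-1α, at 7.89, 8.43 and 8.61 in C and 7.06, 7.97 and 8.44 in MF (-0.42, -0.74 to -0.09), Pck1, the cytosolic phosphoenolpyruvate carboxykinase (-0.25, -0.45 to -0.05), and G6pc, the catalytic subunit of glucose-6-phosphatase (-0.32, -0.63 to -0.02). The low mice were MF replicates 3 and 4 in each of the last 3 genes. Within replicates 5 to 7 Ppargc1a, G6pc and Pck1 differed by 0.06, 0.12 and -0.04, and the list's median was -0.18 in replicates 1 to 4 and 0.02 in replicates 5 to 7.

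Amino acid catabolism and the urea cycle is a list that shares Got1 with gluconeogenesis. Of its 26 genes, 2 (Got1 and Cps1, the entry enzyme of the urea cycle) were lower and 1 higher. Over all genes 1.24% were lower and 2.18% higher. In the list 23 values lay below 0 (45.4% over all genes) and the median was -0.09. The median was -0.19 in replicates 1 to 4 and 0.04 in replicates 5 to 7. Cps1 differed by -0.20 (-0.38 to -0.02). The gene on the higher side was Csad, cysteine sulfinate decarboxylase of taurine synthesis, at 6.85, 8.17 and 9.15 in C and 8.04, 8.76 and 9.19 in MF, a difference of 0.65 (0.00 to 1.30). Among 13 glycogen genes 2 were lower and 0 higher, against 1.24% and 2.18% of all genes. The lower ones were Gys2, the liver glycogen synthase (-0.16, -0.28 to -0.03), and Ppp1r3g, a glycogen-targeting phosphatase subunit (-0.59, -1.10 to -0.09). For Ppp1r3g, C replicate 1 stood alone at 7.49.

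Insulin and growth hormone signalling (23 genes) had 1 higher and 2 lower, against 2.18% and 1.24% of all genes. Lepr, the leptin receptor, was at 7.20, 8.23 and 8.78 in C and at 7.12, 7.34 and 8.00 in MF, a difference of -0.62 (-1.11 to -0.14). Igfbp2, an insulin-like growth factor binding protein, differed by -0.52 (-0.98 to -0.05). In both genes the separation came from replicates 1 to 4, with differences of -1.05 and -0.96, against -0.06 and 0.07 in replicates 5 to 7.

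**Figure D2:**
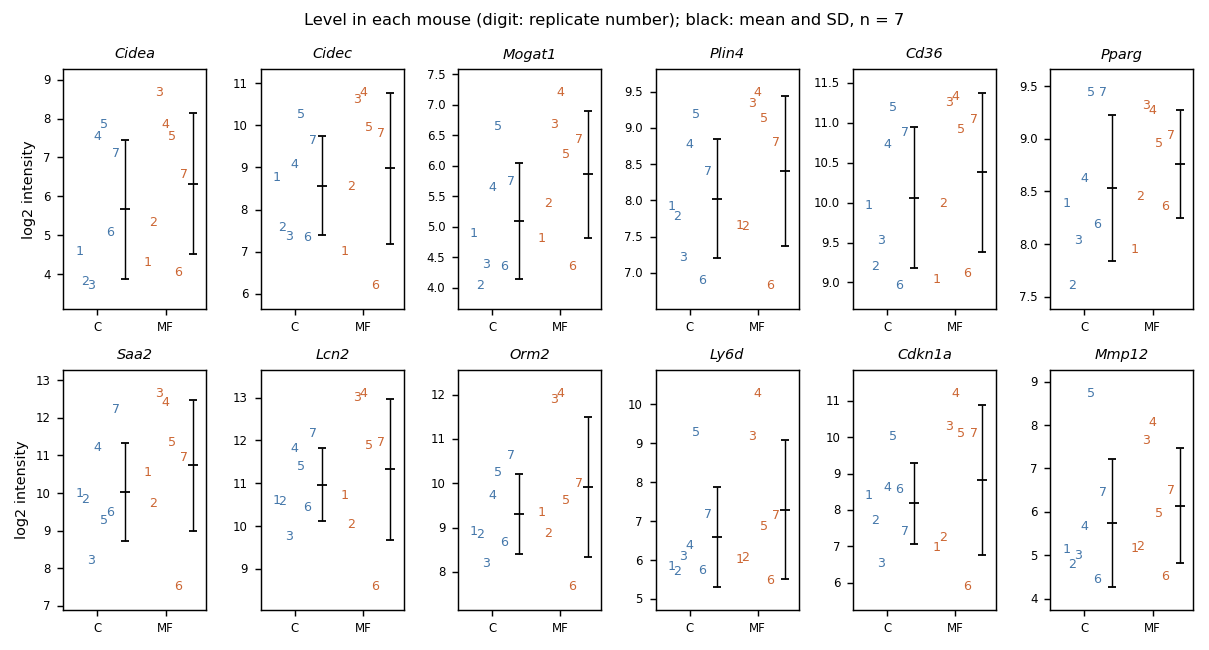
Levels (y axis, log2 intensity) of 12 genes of fat storage, the acute phase and tissue injury in each of 7 C- and 7 MF-fed mice; digits are replicate numbers and the black bar is the mean with its SD. MF replicates 3 and 4 sit at or near the top of the MF group and replicate 6 at or near the bottom, while the C range covers most of the MF range.

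Cytochromes P450 of the Cyp2b family had the largest differences on the higher side. Cyp2b9, a steroid and xenobiotic hydroxylase whose liver expression is female-biased, was at 4.96, 8.74 and 12.00 in C and at 8.62, 11.84 and 12.11 in MF. Of the MF mice 6 exceeded 10, against 2 of the C mice (replicates 5 and 7). The difference was 2.21 (0.45 to 3.96), 4.62-fold, with 2.73 within replicates 1 to 4 and 1.51 within replicates 5 to 7. The mean was 7.98 ± 2.08 (SD, n = 7) in INT and 12.59 ± 0.14 (SD, n = 6) in CR.

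Cyp2b10, the classical target of the receptor CAR, was at 4.71, 5.59 and 8.29 in C and at 5.32, 6.63 and 8.47 in MF, a difference of 0.93 (-0.01 to 1.87). Cyp2b13 differed by 0.94 (0.06 to 1.82), but 6 of 7 C values and 4 of 7 MF values were at or below the intensity minimum, and it reached 7.00 only in MF replicate 4 (0.46 without that mouse). It too was tested only through its levels on the other diets. These Cyp2b genes are close paralogs, and signal shared between their probes cannot be separated here. Cyp2a22 ran from 5.28 to 8.84 in C and from 5.83 to 9.16 in MF, with a difference of 0.73 (-0.31 to 1.77). That difference was 0.45 without MF replicate 4, 0.48 without C replicate 6, 0.24 in replicates 5 to 7 and 0.16 without MF replicates 3 and 4. Slc22a27, an organic anion transporter also biased to females, was at 4.28, 6.09 and 7.38 in C and 6.11, 7.29 and 7.67 in MF, a difference of 1.06 (0.26 to 1.86), positive in both array sets (1.40 and 0.61).

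Over the sex-biased genes, 4 of 13 female-biased genes were higher in MF at an unadjusted p under 0.05 and 0 lower, against 2.18% and 1.24% of all genes. These 4 were Slc22a27, Cyp2b9, Cyp2b13 and Hao2. The count includes Cyp2b13, which was tested only through its levels on the other diets and may share probe signal with Cyp2b9. Of the 13 values 8 lay above 0 and 5 below, and the median of 0.31 was 0.10 over the members above the minimum on all 27 arrays. The median was 0.09 in replicates 1 to 4 and 0.40 in replicates 5 to 7. Of 18 male-biased genes 0 were higher and 2 lower, 16 values lay below 0 (45.4% over all genes) and the median was -0.19. Cyp4a12b, a male-specific fatty acid ω-hydroxylase, was at 11.42, 11.58 and 12.23 in C and at 9.82, 11.05 and 11.44 in MF, a difference of -0.74 (-1.29 to -0.19) and of -0.58 without MF replicates 3 and 4. Its nearest paralog Cyp4a12a may share probe signal.

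Hsd3b5, a male-specific hydroxysteroid dehydrogenase, had the widest spread of any gene in MF. It was at 6.71, 9.42 and 11.09 in C and at 3.20, 8.00 and 11.26 in MF, where replicates 4 and 3 lay at 3.20 and 5.38 and replicates 1, 2 and 6 above 10. The difference of -1.37 had an interval from -3.20 to 0.46, and without MF replicates 3 and 4 it was 0.14. Slco1a1, an organic anion transporter under growth hormone control, was at 7.10 in MF replicate 4 against 9.57 to 11.32 in the other MF mice, with a difference of -0.52 (-1.57 to 0.54) that was -0.0098 without that mouse. The male-biased list as a whole had a median of 0.02 without those 2 mice. In the CR mice Hsd3b5, Slco1a1 and Cyp4a12b averaged 3.60, 5.72 and 5.08.

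**Figure D3:**
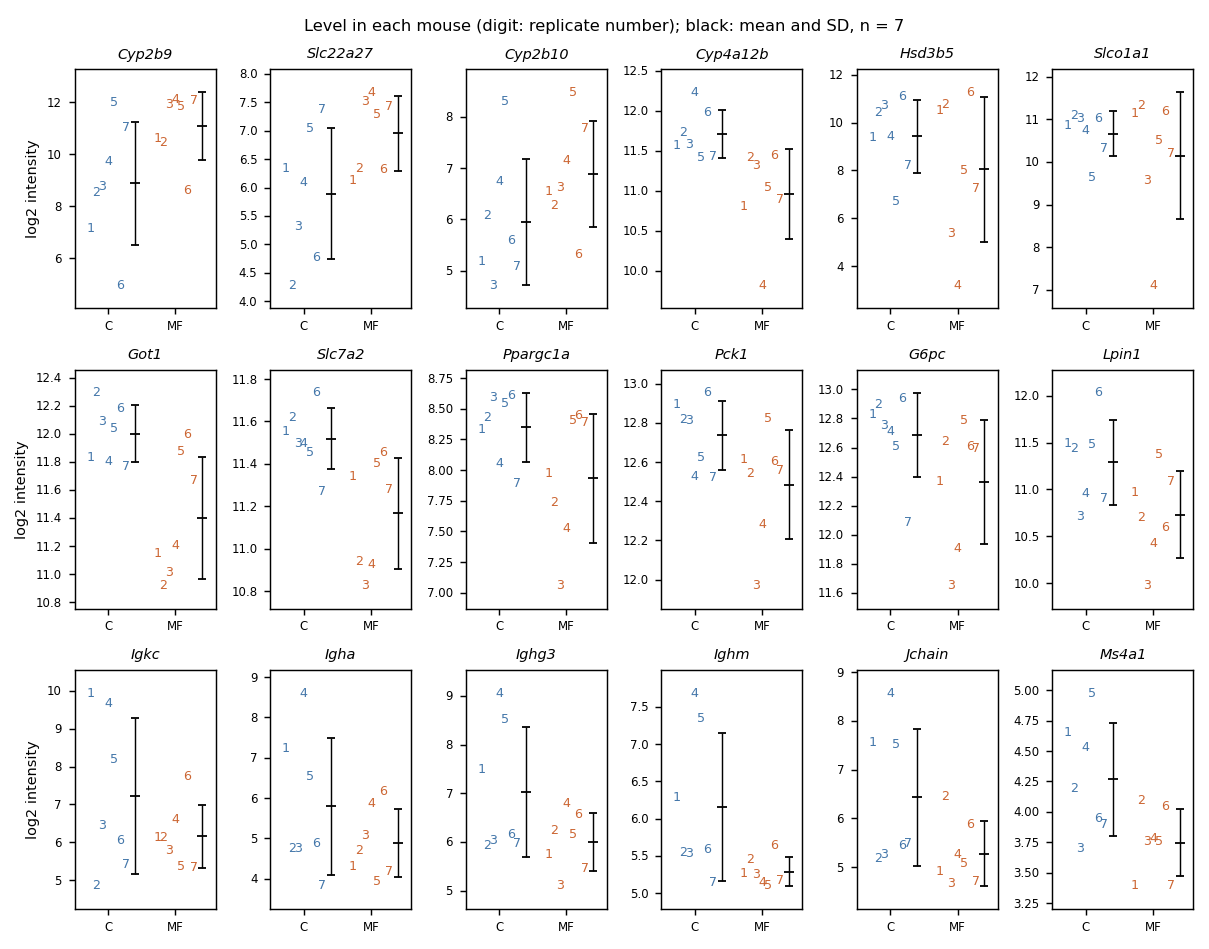
Levels (y axis, log2 intensity) in each mouse of sex-biased genes (top row), genes of amino acid use, glucose release and Lpin1 (middle row) and of B-lineage genes (bottom row), with digits for replicate numbers and black bars for the mean with its SD (n = 7). Got1 is low in MF replicates 1 to 4, Hsd3b5 is low in MF replicates 3 and 4, and the B-lineage genes are high in C replicates 1, 4 and 5.

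Detoxification genes outside the P450 family included Gclc, the catalytic subunit of glutamate-cysteine ligase for glutathione synthesis, at 10.49 to 11.32 in C and 11.00 to 11.22 in MF, with a difference of 0.27 (0.05 to 0.48) and of 0.27 and 0.26 in the sets. Nqo1, a quinone reductase induced by NRF2, differed by 0.32 (-0.15 to 0.79). The list of conjugation enzymes and NRF2 targets had 2 of 24 higher and 1 lower (2.18% and 1.24% over all genes), with a median of 0.07.

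Acute phase genes also varied widely between mice on the same diet. Saa2, serum amyloid A, was at 8.22, 9.82 and 12.21 in C and at 7.51, 10.94 and 12.65 in MF, a difference of 0.70 (-0.75 to 2.16). Lcn2, the siderophore-binding lipocalin, was at 9.77, 10.60 and 12.17 in C and at 8.58, 11.88 and 13.10 in MF, a difference of 0.36 (-0.89 to 1.61). For both, MF replicates 3 and 4 were the highest of all 14 mice and MF replicate 6 the lowest. Orm2 and Orm3, which encode α1-acid glycoproteins and may share probe signal, reached 12.03 and 9.93 in these same MF mice, against highest C values of 10.63 and 7.90.

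Of 26 acute phase genes tested, 2 were higher at an unadjusted p under 0.05 and 0 lower, against 2.18% and 1.24% of all genes. Of the values 24 lay above 0 (54.6% over all genes), with a median of 0.12. The members with that p included Itih4, an inter-α-trypsin inhibitor chain, with 0.16 (0.02 to 0.31). Within replicates 1 to 4, where both high MF mice lie, 25 values were above 0 and the median was 0.22, and within replicates 5 to 7 the numbers were 9 and -0.07. Without MF replicates 3 and 4 the median was -0.02. Mt2, a metallothionein, differed by -0.10 (-0.93 to 0.74). Complement and coagulation (27 genes) had 2 higher and 0 lower, against 2.18% and 1.24% of all genes, and a median of -0.0040.

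Matrix genes were mostly slightly above 0. Of 29 genes of the extracellular matrix and fibrosis 1 was higher and 0 lower (2.18% and 1.24% over all genes). The median was 0.10, and 28 values lay above 0 (54.6% over all genes). After median centring 25 lay above 0 and after cyclic loess 26. The gene at a small p was Col15a1, a basement membrane collagen, at 0.24 (0.03 to 0.46). In replicates 5 to 7 only 10 of 29 values were above 0, and without MF replicates 3 and 4 there were 12, with medians of -0.02 and -0.01. Timp1, an inhibitor of matrix proteases, was near the intensity minimum at 3.92, 4.30 and 4.56 in C and at 3.99, 4.24 and 5.04 in MF, the upper values again being MF replicates 3 and 4. Mmp13, a collagenase, and Mmp12, the macrophage elastase, differed by 0.38 (-0.16 to 0.92) and 0.40 (-0.65 to 1.46), with high values in C replicate 5 as well as MF replicates 3 and 4.

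Macrophage genes gave no difference past the spread between mice. None of 24 macrophage and Kupffer cell genes was at an unadjusted p under 0.05. Adgre1, the F4/80 antigen, was at 7.45, 7.73 and 8.28 in C and 7.24, 7.74 and 8.19 in MF, a difference of -0.06 (-0.36 to 0.24), and Cd68, a lysosomal macrophage protein, differed by 0.02 (-0.39 to 0.44). The mean level of the macrophage list was 7.77 to 8.30 in C and 7.59 to 8.23 in MF. Lipid-associated macrophage genes (16) had 0 higher and 1 lower, Fabp5, with a median of 0.08, which was 0.28 in replicates 1 to 4 and -0.28 in replicates 5 to 7.

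Among chemokines and cytokines, 0 of 21 passed the unadjusted threshold. Ccl3 was at 4.69 to 6.04 in C and 4.94 to 6.99 in MF (0.41, -0.08 to 0.89), and Ccl2 at 4.91 to 5.89 and 4.65 to 6.43 (-0.0019, -0.41 to 0.41). The maximum of Ccl3 was MF replicate 4 and that of Ccl2 MF replicate 3. Interferon response genes had 1 of 25 higher, Stat2, the STAT partner of type I interferon signalling, at 0.22 (0.02 to 0.42). Of the interferon values 21 lay above 0 (54.6% over all genes). Their median of 0.08 was -0.07 without MF replicates 3 and 4. All 8 MHC class II genes had a value below 0 (45.4% over all genes), with a median of -0.14. However, 0 had an unadjusted p under 0.05, and in replicates 1 to 4 the median was 0.04. Of these H2-Eb1, a class II β chain, differed by -0.21 (-0.74 to 0.31) and H2-Oa, a chain of the class II editing cofactor DO, by -0.23 (-0.48 to 0.02). Without C replicate 5 the median of the class II genes was -0.02, with 3 values above 0, and H2-Eb1 was at -0.03. Most values of H2-Oa were at or below the intensity minimum, and it was tested only through its levels on the other diets.

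Lists of cellular upkeep had few members at a small p. Fgf21, the fasting hepatokine, was at 5.80 to 6.57 in C and 5.66 to 6.43 in MF (0.07, -0.26 to 0.40), and 0 of 17 hepatokines passed the unadjusted threshold. The circadian clock had 0 of 19, protein folding 0 of 26 (22 values above 0) and iron and zinc genes 0 of 22 (17 above 0). Over all genes 54.6% of values lay above 0. Oxidative phosphorylation had 0 higher and 1 lower of 29 with a median of -0.03. Cell cycle and p53 target genes had 1 higher and 1 lower of 25, with 15 values above 0 and a median of 0.07. Their widest member was Cdkn1a, the cell cycle inhibitor p21, at 6.53, 8.40 and 10.02 in C and 5.89, 10.09 and 11.20 in MF. Above 10 were MF replicates 3, 4, 5 and 7 and C replicate 5, and the difference was 0.65 (-0.91 to 2.21).

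**Figure D4:**
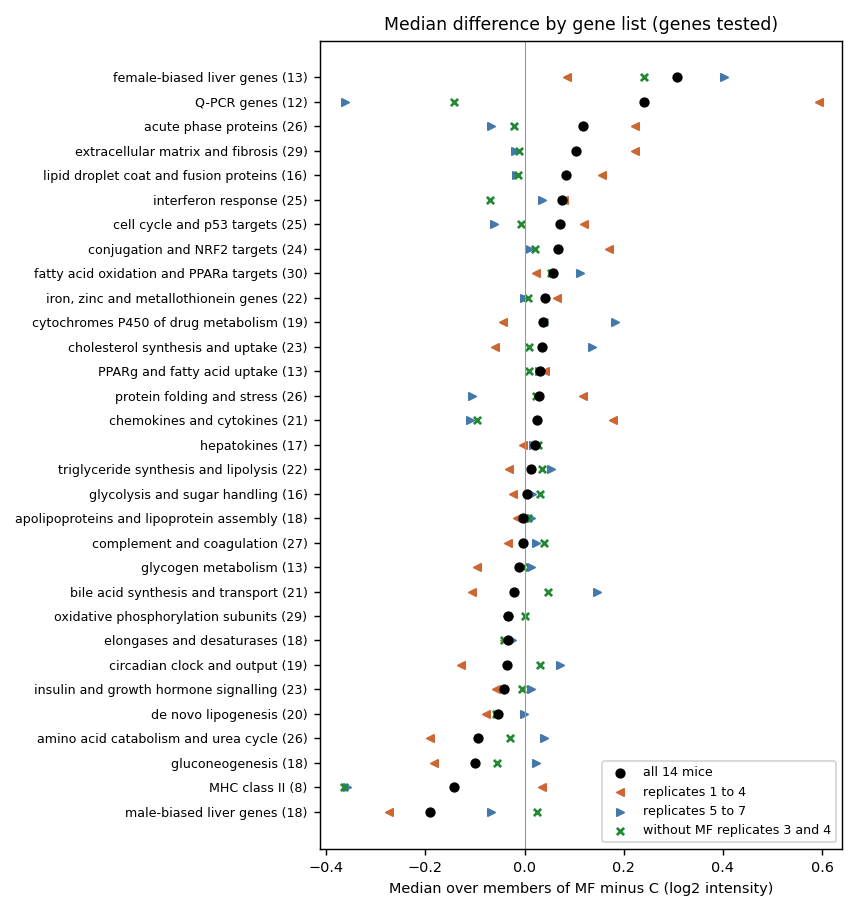
Median over the members of each gene list of the difference MF minus C (x axis, log2 intensity), with the number of genes tested in parentheses; black dots use all mice, triangles the subsets of replicates, and crosses leave out MF replicates 3 and 4. The acute phase list lies at 0.12 with all mice, 0.22 in replicates 1 to 4, -0.07 in replicates 5 to 7 and -0.02 without the named mice.

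Immunoglobulin genes, grouped after their values had been seen and therefore only described, made up most of the largest differences on the lower side. Immunoglobulins are made by B cells and plasma cells, and their RNA in whole liver comes from such cells. All 14 immunoglobulin heavy chain and κ light chain genes that were tested had a value below 0 (45.4% over all genes). A weakly expressed member could pass the intensity filter through the C mice in which it was high, as Igkv6-20 could. The genes also share the same high C mice, so these counts are no support for a difference. Their median was -0.87, with a range from -1.38 to -0.17, and 5 were lower at an unadjusted p under 0.05 (1.24% over all genes). The median level over these genes was 6.43, 7.71 and 6.46 in C replicates 1, 4 and 5 and 4.75 to 5.16 in the other C mice. In MF it ran from 4.75 to 5.10 except for replicate 6 at 5.96. In INT and CR the highest mouse was at 5.80 and 5.37, so that the 3 C mice were the only ones of the series above 6.

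Single genes show the same 3 C mice. Igkc, the κ constant region, was at 9.94, 9.67 and 8.19 in C replicates 1, 4 and 5, at 4.85 to 6.44 in the other C mice and at 5.33 to 7.75 in MF, a difference of -1.06 (-2.34 to 0.21). Ighm, the μ heavy chain, was at 5.15, 5.59 and 7.69 in C and 5.10, 5.25 and 5.63 in MF, a difference of -0.87 (-1.45 to -0.30). Jchain, which joins polymeric immunoglobulins, differed by -1.16 (-2.02 to -0.29).

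Igkv6-20 differed by -1.38 (-2.16 to -0.59), Ighv1-72 by -1.03 (-1.84 to -0.23), Ighg3 by -1.02 (-1.83 to -0.21) and Igha by -0.91 (-1.96 to 0.14). Taken as the mean of all probe sets of a gene, Ighg3, Igha and Ighm differed by only -0.58, -0.60 and -0.63. Igkv6-20 and Ighv1-72 kept their values in that setting. Most MF values of Igkv6-20 were at or below the intensity minimum. Variable gene probe sets may share signal with related segments. The 12 tested T, B and NK cell markers included 2 at an unadjusted p under 0.05 (3.41% over all genes), Ighm and the B cell antigen Ms4a1 (CD20). Ms4a1 was at 3.70 to 4.98 in C and 3.39 to 4.09 in MF, a difference of -0.52 (-0.86 to -0.18). Every MF value and most C values of Ms4a1 were at or below the intensity minimum of 20. It was thus tested only through its levels on the other diets. With all 16 markers that have a value, the mean level was 4.58 to 5.24 in C and 4.53 to 4.96 in MF, and Cd3d, Klrb1c, Ncr1 and Gzma were at or below the minimum in all 14 mice. The part of B-lineage cell number in these values was not tested.

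Among the largest differences there were also genes outside every list. Ly6d, a membrane protein of the Ly6 family, was at 5.70, 6.10 and 9.28 in C and 5.48, 6.85 and 10.28 in MF, high in C replicate 5 and MF replicates 3 and 4 (difference 0.69, -0.47 to 1.84). Obp2a, an odorant binding protein, ran the other way among the MF mice, with replicates 1, 2, 5 and 6 at 5.67 to 7.38 and replicates 3, 4 and 7 at 3.33 to 4.28 (0.70, -0.21 to 1.61). Adgrf1, an adhesion receptor, was at 4.76, 6.72 and 8.86 in C and 4.21, 4.83 and 8.11 in MF, a difference of -0.99 (-2.16 to 0.19). In both diets it was highest in replicate 6, the mouse with the lowest Cidec of its diet in MF and among the lowest 2 in C.

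Other cell types gave little to see. None of 15 endothelial, 11 stellate, 5 cholangiocyte, 4 neutrophil, 8 adipocyte, 3 pancreatic or 2 erythroid markers tested was at an unadjusted p under 0.05, and of 10 hepatocyte markers 1, Pck1, was. The mean level of stellate cell markers was 8.19 to 8.38 in C and 8.26 to 8.43 in MF, and that of endothelial markers was 8.31 to 8.46 and 8.30 to 8.59.

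Over the whole transcriptome no difference in the mean spread between mice was detected between the diets. For each mouse the absolute deviation from the gene's median over the 14 mice was averaged over the tested genes. It was 0.133 ± 0.016 (SD, n = 7) in C and 0.142 ± 0.039 (SD, n = 7) in MF, a difference of 0.009, with p = 0.621 in an exact two-sided permutation test over 3432 splits. That test compares group means and does not show equal spread, and the deviations themselves varied more in MF. Most extreme were MF replicates 4 (0.210) and 3 (0.175), followed by C replicate 6 (0.163), and the lowest was MF replicate 5 (0.103). The median SD of a gene was 0.157 in MF and 0.151 in C, and 53.9% of genes had the larger SD in MF. An SD above 1 was found for 34 genes in MF and for 37 in C, 18 of them in both.

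The genes of widest spread differed in part. In MF they were Hsd3b5 (SD 3.03), Cdkn1a (2.06), Serpina4-ps1, a serpin pseudogene (1.81), Cidea (1.81) and Cidec (1.80), and in C they were Cyp2b9 (2.36), Igkc (2.05), Cidea (1.79), Igha (1.70) and Hsd3b5 (1.54). Over genes centred on their mean, MF replicates 3 and 4 correlated with each other at r = 0.60, the highest of all pairs, and each with MF replicate 6 at -0.54. The next highest pair crossed the diets, C replicate 5 with MF replicate 4 (r = 0.35). The median r of pairs was -0.06 within C, -0.04 within MF and -0.09 between the diets, a description across genes, which are not independent replicates.

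**Figure D5:**
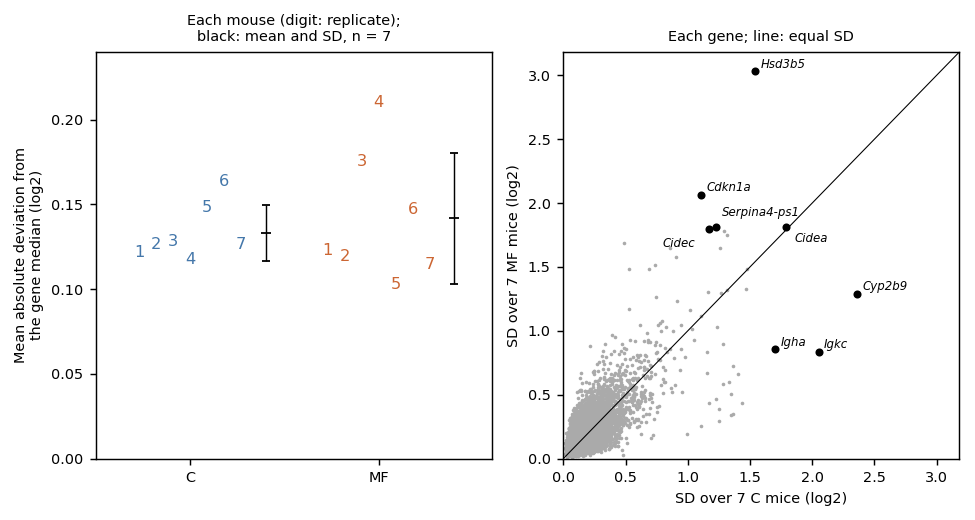
Left, mean absolute deviation from the gene median (y axis, log2 intensity) of each of 7 C- and 7 MF-fed mice, digits for replicate numbers and black bars for the mean with its SD. Right, SD of each gene over the 7 C mice (x axis) and the 7 MF mice (y axis), both in log2 intensity, with the line of equal SD. MF replicates 4 and 3 deviate most (0.210 and 0.175), and Hsd3b5 has the widest spread in MF (3.03).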

How the data were processed

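Total RNA of whole liver (100 ng per mouse) was hybridised to 1 array per mouse. The authors deposited log2 values after robust multiarray average (RMA; version not given in the sources used here), background-corrected, quantile-normalized over the arrays and summarised per probe set, so differences are relative to the other genes. Of 35556 probe sets, 21218 named 1 gene, and those naming several (1881) or none (12457) were left out. The methods describe probe sets defined per Entrez gene, which this table is not. Symbols of 18790 of 18820 genes came from the RefSeq gene table of GRCm38.p6. For 1386 genes with several probe sets the one of highest mean was kept. Genes above an intensity of 20 on at least 5 arrays were tested (13603).

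Groups and replicate numbers came from the sample titles, and the labels give every sample a mouse identifier of its own, whose last number recurs in C and MF. A linear model over all 27 arrays with the contrast MF minus C was fitted in limma 3.58.1 (R 4.3.3), with Benjamini-Hochberg adjustment and 95% intervals. The fit was tested on simulated data with independent genes and the same spread on every diet. That test does not cover genes whose spread differs between diets or genes that vary together. The spread per mouse was compared by an exact permutation test (scipy 1.17.1). The number of arrays limits the precision.

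The comparison, the 42 gene lists (801 genes, 708 with a value, 678 tested) and the settings were chosen with earlier results of these data known. The rule for named genes took 12 genes the study measured by Q-PCR, the 10 of smallest p and the 10 of largest change in each direction, the 5 of largest SD in each group, and up to 3 members per list. Not every gene so picked is named, and the 8 genes without overlap and a few others, such as Orm3, were chosen after their values were seen. Alternatives were other intensity minimums, scalings, variance models, blocks, subsets of mice, probe set means and Tukey's post-test after a one-way analysis, as named in the methods. Leaving out MF replicates 3 and 4 together was added after the data had been seen.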

Additional observations from a re-analysis of the deposited data

Results flagged for a closer look

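Within each diet, the highest or lowest of 7 mice was compared with the range of its group for the 87 named genes and the spread per mouse, 176 comparisons in all. In 10 of them the gap to the next mouse was over 0.568 of the whole range (Dixon's 95% critical value for 7 mice), near the 5% that chance gives.

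C replicate 5 stood out in 4 genes, with Cd68 at 9.13 (next C mouse 8.22), Ly6d at 9.28 (next 7.17), Mmp13 at 5.41 (next 4.38) and Cyp2b13 at 4.66 (next 3.29). MF replicate 4 was the low mouse of 2 male-biased genes, with Cyp4a12b at 9.82 (next MF mouse 10.81) and Slco1a1 at 7.10 (next 9.57). Single C mice gave the remaining 4: replicate 1 was high in Ppp1r3g at 7.49 (next 6.58), replicate 7 low in G6pc at 12.08 (next 12.61), replicate 2 low in Rab36 at 4.47 (next 4.71) and replicate 6 low in Btnl9 at 6.47 (next 6.55).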

How the results depend on the processing

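No gene was called in any of the settings tried except in replicates 1 to 4 alone, where 1 was (Tff3, -1.08, adjusted p = 0.0343 by limma). The 464 genes at an unadjusted p under 0.05 became 724 without an intensity minimum (18820 genes tested), 303 at a mean intensity above 50 (9687 genes tested), 1128 in replicates 1 to 4 and 80 by the methods' one-way test with Tukey's post-test, of which 0 were called after Benjamini-Hochberg adjustment. Leaving out 1 mouse at a time gave 374 to 729, with 729 without C replicate 5 and 723 without MF replicate 6, and leaving out MF replicates 3 and 4 gave 574. Intervals within 1 log2 unit of 0 held for 13485 to 13527 genes when 1 mouse was left out. The difference in spread between mice was -0.0239 in replicates 5 to 7, -0.0144 without MF replicates 3 and 4 and -0.0026 to 0.0157 when leaving out 1 mouse. The cause of these changes was not tested.

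Same-numbered C and MF mice deviated from their group means with r from -0.25 to 0.30, and 2 of 7 C mice correlated best with their own number, so the numbers were not taken to pair the mice. With the replicate block, 536 genes were at an unadjusted p under 0.05 and 0 were called. For C and MF mice sharing the last number of their identifier, r was -0.27 to 0.05, and 0 of 7 C mice correlated best with it. With that number as a block the counts were 467 and 0.

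Of 2573 values of the 87 named genes under other settings, 61 had the opposite sign, in 28 genes. In replicates 5 to 7 the difference was -0.63 for Cidea, -0.44 for Cidec, -0.39 for Saa2, -0.53 for Lcn2, -0.29 for Timp1, -0.0612 for Ccl3, -0.34 for Cd68, -0.90 for Ly6d, 0.16 for Hsd3b5, -0.24 for Pparg, 0.32 for Slco1a1, 0.32 for Cyp7a1, 0.0241 for Gys2, 0.0643 for Ppargc1a, 0.12 for G6pc, 0.0748 for Igfbp2, -0.76 for Orm2, -0.21 for Orm3, -0.88 for Mmp12 and -0.45 for Mmp13. In replicates 1 to 4 it was 0.15 for Mt2 and 0.28 for Ccl2. Without MF replicates 3 and 4 it was -0.11 for Cidea, -0.27 for Cidec, -0.0065 for Fgf21, -0.0136 for Saa2, -0.33 for Lcn2, -0.10 for Timp1, -0.23 for Cd68, -0.29 for Ly6d, -0.11 for Cdkn1a, 0.14 for Hsd3b5, -0.0144 for Plin4, -0.0450 for Cd36, 0.21 for Slco1a1, 0.0777 for Cyp7a1, -0.22 for Orm2, -0.37 for Orm3, -0.28 for Mmp12, -0.0297 for Mmp13 and 0.28 for Serpina4-ps1. With array weights Cd68 was at -0.0332. Leaving out 1 mouse at a time moved Mt2 between -0.24 and 0.17, Ccl2 between -0.20 and 0.11, Adgre1 between -0.13 and 0.0262 and Cd68 between -0.13 and 0.19. Of 1259 list medians under other settings, 5 moved by more than the SD between mice.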
